A study of Rattus norvegicus with 15 samples.

Results

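Cxcl1, Cxcl2, Cxcl3 and Cxcl6 are the CXC chemokines of the rat that carry a glutamate-leucine-arginine motif and draw neutrophils into tissue. They were taken as the rows of the deposited expression table that bear these symbols, 4 of 22250 genes, and all 4 were among the 13457 genes that reached 1 FPKM (fragments scaled to transcript length and to library size) in at least 5 of the 15 libraries. Cxcl6 passed that filter through the LPS-treated lungs, since its highest control value was 0.405 FPKM. RefSeq lists Cxcl5 as a synonym of rat Cxcl6, and no gene was analysed here under the name Cxcl5.

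The libraries came from whole lung of wild-type rats and formed 3 groups of 5. The control group was labelled as normal control, the ALI (acute lung injury) group received lipopolysaccharide (LPS, the cell wall component of Gram-negative bacteria) through the trachea, and the SJY group received LPS through the trachea and Sang Ju Yin, a Chinese herbal decoction, into the stomach. Strain, sex, age, dose and time after LPS are not given in the labels, and no group is labelled as given a vehicle, so instillation and gavage cannot be told apart from the agents. The labels number the libraries (control 4 to 8, ALI 1 to 5, SJY 1, 3, 4, 5 and 6) without saying that each is a separate animal, and the p-values reflect the spread among libraries, which may be technical.

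Chemokines of this family are secreted by epithelium, macrophages, fibroblasts and endothelium within hours of contact with bacterial products, bind to sugar chains on the endothelium and act on neutrophils through the receptors Cxcr1 and Cxcr2. Their genes lie in a tight cluster, and their transcription is driven by NF-kB, the transcription factor that Toll-like receptor and interleukin-1 signals release. Their mRNAs are short-lived unless a second signal stabilises them. In lungs given LPS they are a main signal for the entry of neutrophils into the airspaces.

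In the RefSeq gene table the genes stand in the order Cxcl2, Cxcl1, Cxcl3, Pf4, Ppbp and Cxcl6 on chromosome 14, with other annotated loci between some of them. The 250 bases before the annotated transcription start are shown for Cxcl1, Cxcl2 and Cxcl6, from RefSeq on build GRCr8, because these are the 3 members with a promoter entry and each holds the same kind of element at about the same place. All 3 genes are on the minus strand, at chr14:17479322-17479571 for Cxcl1, chr14:17467256-17467505 for Cxcl2 and chr14:17596418-17596667 for Cxcl6. Capitals mark matches to the NF-kB consensus on either strand.
Cxcl1: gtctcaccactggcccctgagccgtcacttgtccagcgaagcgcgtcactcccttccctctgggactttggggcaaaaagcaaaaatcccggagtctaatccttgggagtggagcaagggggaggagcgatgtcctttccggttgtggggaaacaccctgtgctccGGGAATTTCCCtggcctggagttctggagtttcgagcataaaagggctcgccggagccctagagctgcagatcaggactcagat
Cxcl2: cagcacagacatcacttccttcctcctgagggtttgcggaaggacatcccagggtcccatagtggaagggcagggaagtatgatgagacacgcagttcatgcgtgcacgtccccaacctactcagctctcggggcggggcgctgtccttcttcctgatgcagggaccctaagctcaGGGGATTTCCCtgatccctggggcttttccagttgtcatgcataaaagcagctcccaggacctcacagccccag
Cxcl6: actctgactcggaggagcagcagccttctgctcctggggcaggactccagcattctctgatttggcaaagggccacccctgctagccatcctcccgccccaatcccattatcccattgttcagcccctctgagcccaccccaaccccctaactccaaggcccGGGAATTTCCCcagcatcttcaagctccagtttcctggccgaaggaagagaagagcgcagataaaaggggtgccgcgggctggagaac

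Each window held 2 overlapping matches that together form an 11-base run. The first match read GGGAATTTCC in Cxcl1, from 84 to 75 bases before the start, and GGGAATTTCC again in Cxcl6, from 88 to 79 bases before it. In Cxcl2 it read GGGGATTTCC, from 74 to 65 bases before the start. Among the 33469 RefSeq promoter windows of 300 bases (250 before and 50 after the start), 4.18% held an NF-kB match and 0.0747% held GGGAATTTCC on either strand. None of the 3 windows held TTNNGNAAT (a C/EBP motif), TGANTCA (an AP-1 motif) or TATAAA, searched on both strands, which occurred in 12.3%, 7.33% and 14.2% of all windows. The matches are letters in these windows and were not measured as bound sites.

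**Figure D1:**
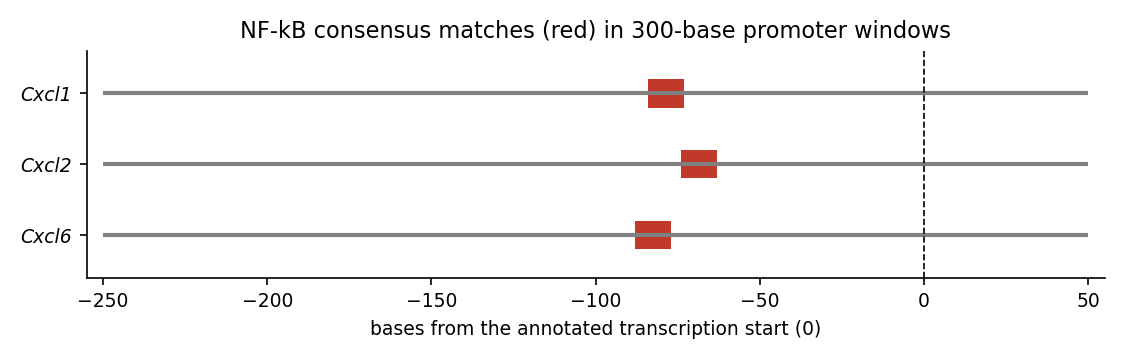
Position of NF-kB consensus matches (red boxes) in the 300-base promoter windows of Cxcl1, Cxcl2 and Cxcl6, in bases from the annotated start (dashed line at 0). The boxes of all 3 genes lie between 88 and 64 bases before the start.

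In every library the FPKM values were whole multiples of 1 fragment per gene, so fragment counts could be recovered. The libraries held 12071380 to 14009923 counted fragments, and 95% Poisson intervals on the recovered counts are given where they matter. These intervals cover counting error only. The library ALI 1 stood apart: 37.7% of its summed FPKM came from mitochondrial genes, against 5.19% to 17.1% in the other 14 libraries, the highest of those being SJY 1. It also had the lowest summed level of 11 lung epithelial markers (Sftpc, Scgb1a1, Ager and others), 13316 FPKM, against 22537 to 39983 FPKM elsewhere. The chemokine comparisons with the ALI group are therefore given with and without ALI 1, and those of other named genes where its removal changed the call printed or moved a value by more than 1.5 times.

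Cxcl1, the main early chemokine of this family, was low in control lung and high in both LPS groups. Its level was 42.5, 17.1, 15.2, 12.3 and 11.5 FPKM in control 4 to 8, and 382, 134, 209, 151 and 86.2 FPKM in ALI 1 to 5. In SJY 1, 3, 4, 5 and 6 it was 68.7, 158, 140, 145 and 197 FPKM. Every LPS-treated library lay above every control library, control 4 was the highest control, and SJY 1 was the lowest of the LPS-treated libraries. The group means were 19.7 ± 13.0 (SD, n = 5) in control, 193 ± 115 (SD, n = 5) in ALI and 142 ± 46.7 (SD, n = 5) in SJY, and the ALI mean without ALI 1 was 145 ± 50.9 (SD, n = 4). In its median library, Cxcl1 ranked 5814th among all genes by FPKM in control lung, 463rd in ALI and 502nd in SJY.

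Cxcl2, which acts on the same receptor as Cxcl1, followed the same course at a lower level. It stood at 11.1, 3.97, 3.30, 1.84 and 0.763 FPKM in control 4 to 8, which rests on 152 fragments in control 4 and 10 in control 8. In ALI 1 to 5 it was 95.7, 28.9, 20.5, 14 and 10.1 FPKM, and in SJY 1, 3, 4, 5 and 6 it was 7.18, 29.5, 34.5, 25.8 and 30.2 FPKM. Control 4 reached above the lowest library of each LPS group, ALI 5 and SJY 1. Its counting interval, 9.41 to 13.0 FPKM, overlapped that of ALI 5, 8.45 to 12 FPKM, and lay above that of SJY 1, 5.84 to 8.73 FPKM.

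Cxcl3 was the abundant member in normal lung. Its FPKM was 173, 168, 206, 267 and 318 in control 4 to 8, 295, 284, 332, 375 and 341 in ALI 1 to 5, and 207, 248, 291, 297 and 272 in SJY 1, 3, 4, 5 and 6. The groups overlapped, since control 8 lay above ALI 1 and ALI 2, and ALI was the higher in 23 of 25 pairs of libraries. Counting intervals were narrow at this level, 162 to 174 FPKM in the lowest library, control 5, with 3119 fragments. Control 4, the control library with the most Cxcl1 and Cxcl2, was among the lowest for Cxcl3.

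Cxcl6, the chemokine also called LIX and a product of epithelium and other stromal cells, was close to absent in control lung and varied most between the LPS-treated libraries. Control 4 to 8 gave 0.0482, 0.291, 0.405, 0.340 and 0.353 FPKM, from 1 to 8 fragments a library. ALI 1 to 5 gave 100, 4.51, 35.4, 9.58 and 2.55 FPKM, from 2194 fragments in ALI 1 down to 50 in ALI 5. SJY 1, 3, 4, 5 and 6 gave 0.995, 1.13, 3.98, 1.54 and 2.97 FPKM. All LPS-treated libraries lay above all control libraries, and SJY 4 and SJY 6 were the only SJY libraries above the lowest ALI library.

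**Figure D2:**
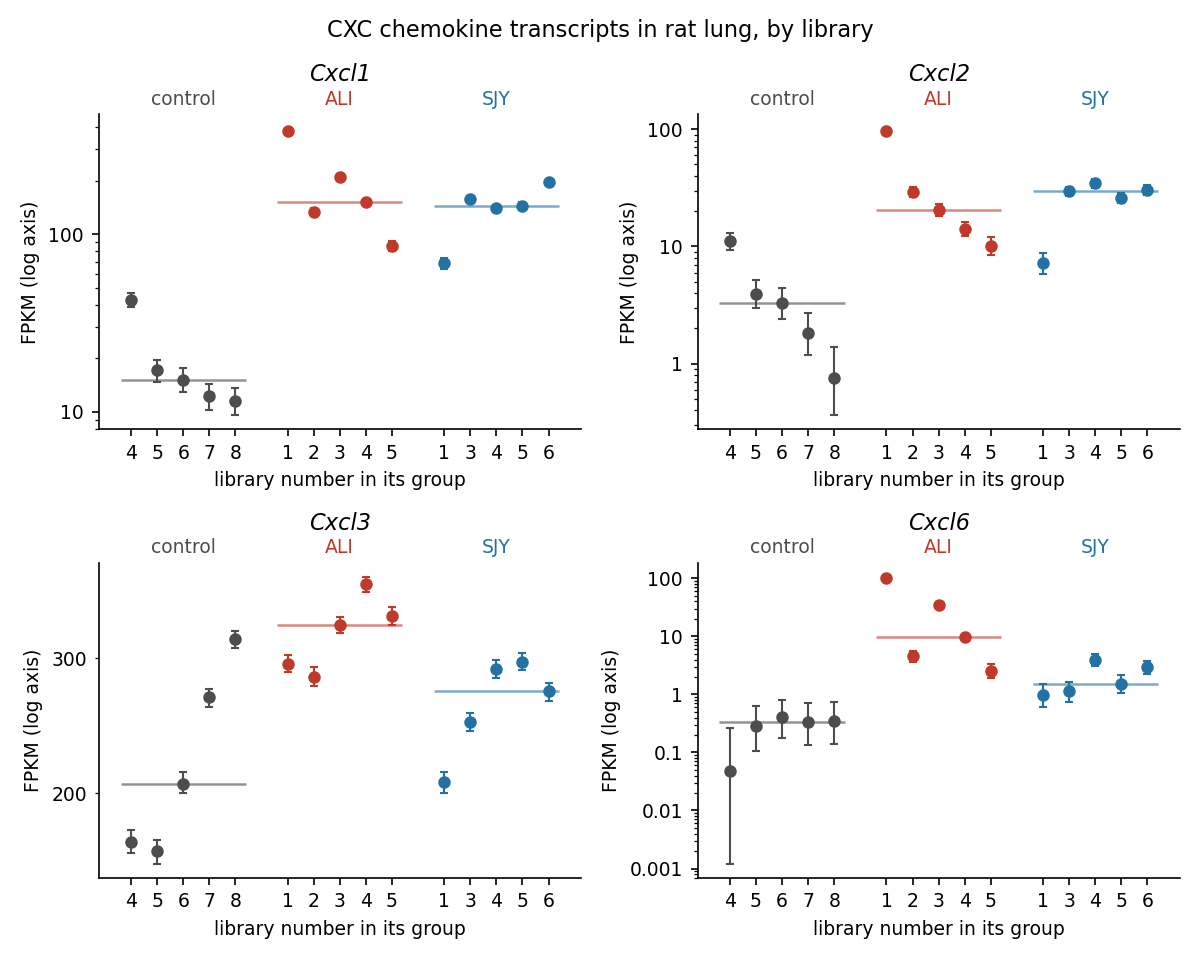
FPKM (log axis, a separate range for each gene) of Cxcl1, Cxcl2, Cxcl3 and Cxcl6 in each library of the control, ALI and SJY groups. Points are libraries, bars are 95% Poisson intervals of the recovered fragments and lines are group medians. Cxcl6 spans 2.55 to 100 FPKM within the ALI group.

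All 4 transcripts were higher in ALI than in control lung, Cxcl6 and Cxcl1 by the most and Cxcl3 by the least. Differences are log2 fold changes on log2(FPKM + 1), which understate the change of low genes, from a limma fit of all 15 libraries, with Benjamini-Hochberg adjustment over 13457 genes. Cxcl6 rose by 3.55 ± 0.67 (SE) in ALI against control (adjusted p = 0.00251), Cxcl1 by 3.21 ± 0.40 (adjusted p = 7.48e-05) and Cxcl2 by 2.59 ± 0.58 (adjusted p = 0.00759). Cxcl3 rose by 0.56 ± 0.17 (adjusted p = 0.0329). These 4 of 4 calls stand against 8.02% of all tested genes called higher and 9.56% called lower in this comparison. The 4 genes were chosen with earlier results of these data known, so this count is a description and not independent evidence. Cxcl6 was moreover among the tested genes only through its LPS-treated libraries. For Cxcl1 and Cxcl6 all ALI libraries lay above all controls, which held for 6.17% of tested genes, and the exact permutation p, two-sided, was 0.00794, the smallest that 5 against 5 allows.

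The size of the Cxcl6 rise depended on the scale and on ALI 1. With a pseudocount of 0.1 in place of 1 it was 5.22, and with limma's voom on the recovered fragments it was 5.66 ± 1.74 (SE). Without ALI 1 the log2 fold changes were 2.86 for Cxcl6 (adjusted p = 0.00114), 2.92 for Cxcl1 (adjusted p = 0.000103), 2.11 for Cxcl2 (adjusted p = 0.0154) and 0.59 for Cxcl3 (adjusted p = 0.0308). That fit called 9.11% of genes higher. The Cxcl3 call was lost when control 4, control 5, control 6, ALI 3 or ALI 4 was left out, with adjusted p between 0.0582 and 0.0877, and when only the 2 groups entered the fit (adjusted p = 0.0746).

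The LPS-treated lungs given Sang Ju Yin remained above control lung for Cxcl1 and Cxcl2. In SJY against control, Cxcl1 was higher by 2.88 ± 0.40 (SE, adjusted p = 0.000112) and Cxcl2 by 2.50 ± 0.58 (adjusted p = 0.00508), where 14.6% of all genes were called higher and 18.1% lower. The Cxcl3 difference was 0.25 ± 0.17 (adjusted p = 0.276, 95% interval -0.11 to 0.61). The Cxcl6 difference was 1.19 ± 0.67 (adjusted p = 0.187), although all 5 SJY libraries lay above all 5 controls, as they did for 11.8% of tested genes. Cxcl6 was among the tested genes only through its LPS-treated libraries. Its exact permutation p was 0.00794, two-sided and not adjusted, and the limma call was made with a pseudocount of 0.1 (2.44, adjusted p = 0.0292) and in a fit of these 2 groups alone (adjusted p = 0.00207). The pooled fit takes its spread for Cxcl6 from all 3 groups, the ALI group with its 2.55 to 100 FPKM included.

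Against the ALI group, no chemokine of the 4 passed the threshold in the SJY group. limma called 0 of 4, 1 of them (Cxcl6) at an unadjusted p under 0.05, and voom on the recovered fragments also called 0. Over all genes limma called 0.00743% higher and 0% lower, 696 genes being lower and 891 higher at an unadjusted p under 0.05. Cxcl1 differed by -0.33 ± 0.40 (SE, adjusted p = 0.791, 95% interval -1.17 to 0.50) and Cxcl2 by -0.098 ± 0.58 (adjusted p = 0.973, interval -1.34 to 1.14). These intervals leave room for a fall of Cxcl1 or Cxcl2 by more than 1 log2 unit. For Cxcl3 the difference was -0.31 ± 0.17 (adjusted p = 0.496, interval -0.67 to 0.047), with SJY above ALI in 3 of 25 pairs of libraries.

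Cxcl6 had the largest difference of the 4 between SJY and ALI. Its mean was 2.12 ± 1.30 FPKM (SD, n = 5) in SJY and 30.5 ± 41.3 FPKM (SD, n = 5) in ALI, and the SJY value was the higher in 2 of 25 pairs of libraries. The log2 fold change was -2.36 ± 0.67 (SE, limma unadjusted p = 0.00297, adjusted p = 0.229, 95% interval -3.79 to -0.93), and the exact permutation p, two-sided and not adjusted, was 0.0317. Without ALI 1 the ALI mean was 13.0 ± 15.2 FPKM (SD, n = 4) and the log2 fold change was -1.67 ± 0.50 (limma unadjusted p = 0.00417, adjusted p = 0.103). In that fit 0.885% of genes were called higher and 0.461% lower in SJY, none of the 4 chemokines among them. Cxcl2 then differed by 0.39 ± 0.53, Cxcl1 by -0.043 ± 0.37 and Cxcl3 by -0.34 ± 0.18.

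**Figure D3:**
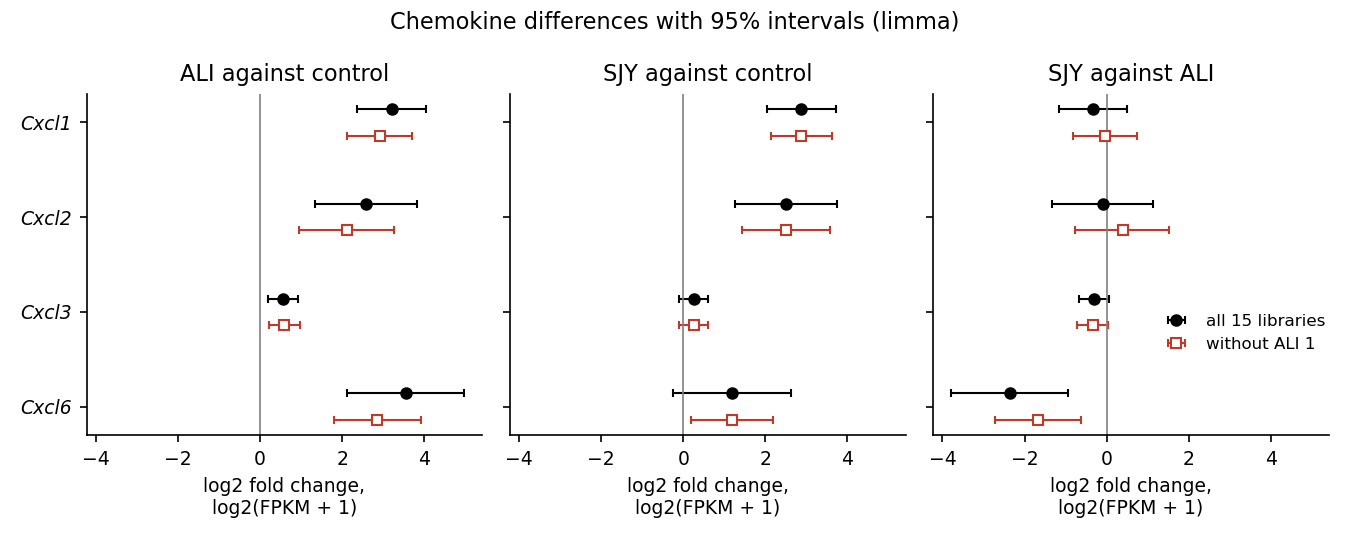
Log2 fold changes on log2(FPKM + 1) of the 4 chemokines in the 3 comparisons, with 95% intervals from limma, for all 15 libraries (black circles) and without ALI 1 (open red squares). The interval of Cxcl6 in SJY against ALI lies below 0 in both fits, from -3.79 to -0.93 with all libraries, and does not pass after adjustment.

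The make-up of the chemokine transcript pool moved away from Cxcl3 in both LPS groups. FPKM is a level per length, so the 4 genes can be set side by side. In the median control library Cxcl3 made up 91.6% of the summed FPKM of the 4 genes, Cxcl1 6.75%, Cxcl2 1.47% and Cxcl6 0.121%. In ALI the medians were 62.9% for Cxcl3, 29.8% for Cxcl1, 3.43% for Cxcl2 and 1.75% for Cxcl6, and in SJY they were 62.0%, 30.9%, 6.01% and 0.351%. The summed level of the 4 was 250 ± 55.6 FPKM in control lung (SD, n = 5), 582 ± 176 after LPS (SD, n = 5) and 432 ± 86.2 after LPS with Sang Ju Yin (SD, n = 5). The order Cxcl3, Cxcl1, Cxcl2, Cxcl6 held in 13 of the 15 libraries, and the exceptions were ALI 1, in which Cxcl1 exceeded Cxcl3 and Cxcl6 exceeded Cxcl2, and ALI 3, in which Cxcl6 exceeded Cxcl2.

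The level of Cxcl6 relative to Cxcl1 ran higher in ALI than in SJY lung. Cxcl6 stood at 26.3%, 3.36%, 16.9%, 6.36% and 2.95% of the Cxcl1 level in ALI 1 to 5, and at 1.45%, 0.713%, 2.84%, 1.06% and 1.5% in SJY 1, 3, 4, 5 and 6. The lowest ALI library, ALI 5 (2.95%), and the highest SJY library, SJY 4 (2.84%), were close, and no interval was formed for the ratio. Their Cxcl6 levels rest on 50 and 78 fragments, with counting intervals of 1.89 to 3.36 and 3.15 to 4.97 FPKM. Control libraries, with far less of both transcripts, stood at 0.113% to 3.07% (median 2.67%), overlapping both LPS groups. This ratio was formed after the values were seen and is given as a description, with no test. The ratio of Cxcl1 to Cxcl2 overlapped between the LPS groups, at 3.99 to 10.7 in ALI and 4.06 to 9.57 in SJY.

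**Figure D4:**
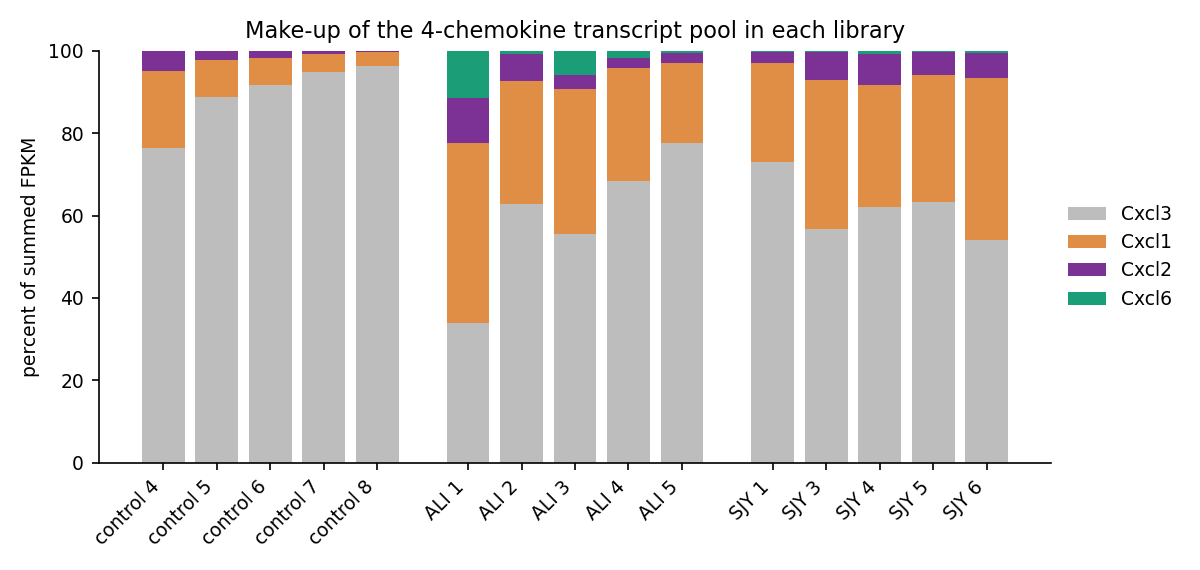
Share of each chemokine in the summed FPKM of Cxcl1, Cxcl2, Cxcl3 and Cxcl6 (percent, stacked bars from 0) in each library. Cxcl3 takes 76.3% to 96.2% in control and 33.8% in ALI 1, and the Cxcl6 segment is visible mainly in ALI 1 (11.5%) and ALI 3 (5.92%).

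Across the 15 libraries Cxcl1 and Cxcl2 were the most alike pair, with a Spearman rho of 0.87, and 0.59 over the 10 LPS-treated libraries. Cxcl1 and Cxcl6 were about as close, with 0.82 over the 15 and 0.60 over the 10. For Cxcl3 and Cxcl6 the values were 0.68 and 0.54. After subtraction of group means the log2 values of Cxcl1 and Cxcl2 had a Pearson r of 0.91, or 0.88 without ALI 1. Single libraries departed from this: ALI 3 was above ALI 2 for Cxcl1 (209 and 134 FPKM) and below it for Cxcl2 (20.5 and 28.9 FPKM). Cxcl3 went with neither in that sense, with r of -0.28 to Cxcl1 and -0.39 to Cxcl2. Cxcl6 stood between, with r of 0.63 to Cxcl1, and 0.46 without ALI 1. These are descriptions over libraries that share groups and depth.

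Genes among the 3 nearest to each chemokine over all 15 libraries were ordered by Spearman rho. For Cxcl1 they included Shmt2 (0.96) and Snrpa (0.96), and for Cxcl2 they were Psmd9 (0.97), Atp5mc1 (0.95) and Plaur (0.95), the last of which encodes the urokinase receptor. For Cxcl3 they were Sec24d (0.89), Etv6 (0.89) and Rpl12 (0.86). For Cxcl6 they were C3 (0.96), the central complement component, Cd177 (0.96), a surface protein of neutrophils, and Ugdh (0.94). Over the 10 LPS-treated libraries alone these values ranged from 0.82 for Ugdh to 0.95 for Psmd9. The mean C3 level was 51.4 ± 14.7 FPKM in control lung, 250 ± 85.6 FPKM in ALI lung and 137 ± 39.2 FPKM in SJY lung (SD, n = 5).

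The receptors of the chemokines moved in opposite directions. Cxcr2, the receptor that all 4 ligands use on neutrophils, lay between 2.09 and 4.49 FPKM in control lung, between 18.5 and 79.3 FPKM in ALI lung and between 69.4 and 115 FPKM in SJY lung. It rose by 3.45 in ALI against control (adjusted p = 3.21e-06) and by 4.50 in SJY against control (adjusted p = 1.18e-07). Cxcr1 fell by 1.36 in ALI (adjusted p = 0.00127) and by 1.36 in SJY (adjusted p = 0.000709), with control libraries between 8.52 and 15.1 FPKM and LPS-treated libraries between 1.57 and 5.30 FPKM. Ackr3, a scavenging receptor for CXC chemokines of another branch (Cxcl11 and Cxcl12), rose by 0.83 in ALI (adjusted p = 0.0137), and Ackr2, a scavenger of CC chemokines, differed by -0.29 (adjusted p = 0.379), and by -0.077 without ALI 1. Ackr1 was not analysed here.

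Between the LPS groups, Cxcr2 differed by 1.05 in SJY against ALI (adjusted p = 0.223). Without ALI 1 it was higher in SJY by 1.27 (adjusted p = 0.0341). So with that library left out the receptor was called higher in SJY, while the Cxcl6 difference was -1.67 and not called.

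Most neutrophil marker transcripts were higher in both LPS groups than in control lung. Of 20 listed markers (S100a8, S100a9, Csf3r, Cd177 and others, with Cxcr2, Mmp8 and Mmp9 among them) 18 were tested, and 17 were called higher in ALI and 18 in SJY against control. Their median log2 fold changes were 2.76 and 3.12, against medians over all tested genes of -0.12 and -0.11. Over all tested genes 8.02% were called higher in ALI and 14.6% in SJY. The listed markers Ngp and Mpo did not reach the filter, and their means were not higher after LPS. Ngp had means of 2.19, 0.51 and 0.534 FPKM in control, ALI and SJY lung, and Mpo 0.204, 0.201 and 0.0858 FPKM. The summed marker level lay between 315 and 363 FPKM in control lung, between 2462 and 23724 FPKM in ALI lung and between 8758 and 15299 FPKM in SJY lung, and no marker was at 0 in all libraries of a group. In the LPS groups most of this sum came from S100a9, S100a8 and Lcn2. Their means were 3647, 1842 and 2861 FPKM in ALI and 5825, 3126 and 2821 FPKM in SJY. Without ALI 1 the ALI means were 2042, 1047 and 1717 FPKM. ALI 1 held the highest sum, and the other 4 ALI libraries, at 2462 to 7604 FPKM, all lay below all 5 SJY libraries. In bulk lung, fewer cells of a type and less RNA per cell cannot be told apart, and the part of these cells in the chemokine levels was not tested.

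In SJY against ALI, 0 of 18 neutrophil markers were called by limma with all libraries, while 12 had an unadjusted p under 0.05, 11 of them higher and 1 lower, and voom called 0. Without ALI 1, 11 of 18 were called higher and 0 lower, with a median log2 fold change of 1.14. S100a9, which encodes a calcium-binding protein abundant in neutrophils, had a mean of 5825 ± 1137 FPKM (SD, n = 5) in SJY and 2042 ± 936 FPKM (SD, n = 4) in ALI without ALI 1. Cxcl6, at a mean of 2.12 FPKM in SJY and 13.0 FPKM in those 4 ALI libraries, was not called in that fit (adjusted p = 0.103), and SJY 4 and SJY 6 lay above ALI 5. Control 4, the control with the most Cxcl1 and Cxcl2, had a neutrophil marker sum of 362 FPKM, within the range of the other 4 controls (315 to 363 FPKM).

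**Figure D5:**
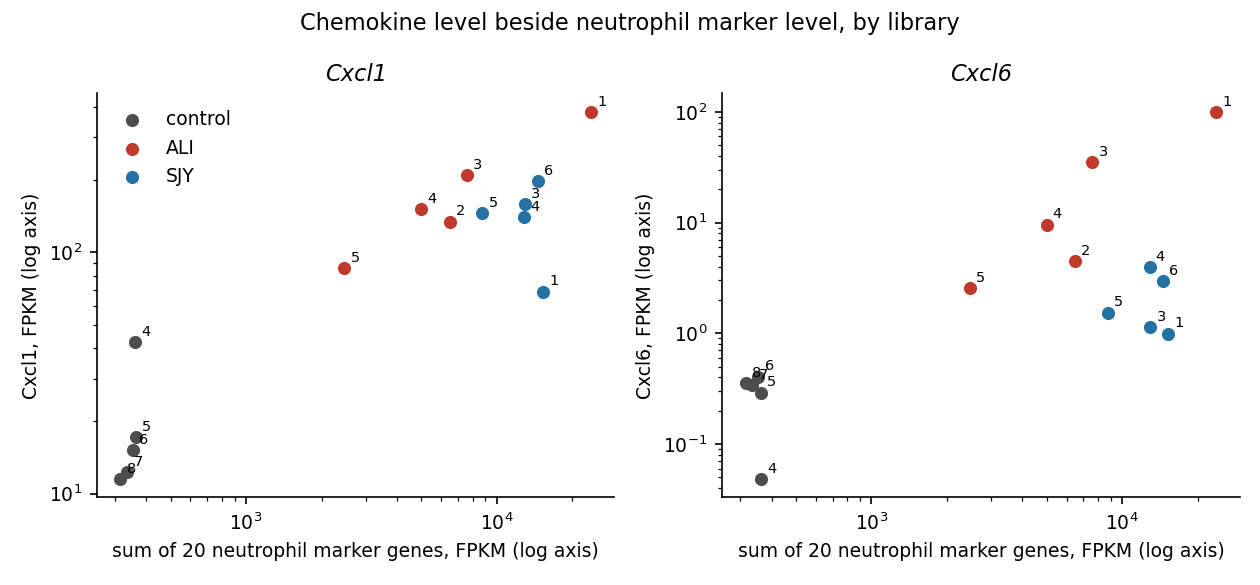
FPKM of Cxcl1 (left) and Cxcl6 (right) against the summed FPKM of 20 neutrophil marker genes, both on log axes, 1 numbered point for each library. In the right panel the SJY libraries (blue) lie at 8758 to 15299 FPKM of marker sum and 0.995 to 3.98 FPKM of Cxcl6. Their Cxcl6 is below that of ALI 2, ALI 3 and ALI 4, which have less marker transcript. ALI 1 has the most of both, at 23724 and 100 FPKM. ALI 5 has the lowest marker sum of the LPS-treated libraries, 2462 FPKM, and its Cxcl6, 2.55 FPKM, lies below SJY 4 and SJY 6.

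Markers of other cells of the lung changed in part, to be read against 8.02% of all genes called higher and 9.56% lower in ALI and 14.6% and 18.1% in SJY. Of 11 tested epithelial markers 8 were called lower in ALI and 6 in SJY against control, among them Ager, of alveolar type I cells, by -1.27 in ALI (adjusted p = 0.0132). Of 11 monocyte and macrophage markers 6 were called higher and 1 lower in ALI, and 5 higher and 1 lower in SJY. Vcan, a matrix proteoglycan of monocytes, rose by 2.67 in ALI (adjusted p = 0.000414), and Pparg, a factor of alveolar macrophages, fell by 1.04 (adjusted p = 0.00368). Of 8 endothelial markers 2 rose, Selp (P-selectin) by 2.74 (adjusted p = 0.00103) and Sele (E-selectin) by 0.98 (adjusted p = 0.0369), and Kdr fell by 0.96 (adjusted p = 0.00878). The Sele call was lost without control 4, 5, 6 or 7 or ALI 3 (adjusted p 0.0549 to 0.0926). Of 7 fibroblast and muscle markers 2 rose in ALI, Col1a1 and Dcn, and of 4 tested blood markers 0 were called by limma in ALI, with 2 higher at an unadjusted p under 0.05 and 0 called by voom. The 1 of 8 endothelial genes called lower is near the share over all genes. Median log2 fold changes in ALI were -0.87 for the epithelial, 0.94 for the monocyte and macrophage, -0.21 for the endothelial, 0.092 for the fibroblast and muscle and 1.21 for the blood list, against -0.12 over all genes. Without ALI 1 these medians were -0.64, 1.04, 0.04, 0.41 and 1.32 in the same order, against -0.024 over all genes. The summed levels in control, ALI and SJY libraries were 28373 to 39983, 13316 to 26661 and 26982 to 33889 FPKM for the epithelial list, and 267 to 377, 286 to 894 and 431 to 671 FPKM for the monocyte and macrophage list. They were 558 to 705, 281 to 676 and 522 to 709 FPKM for the endothelial list, 495 to 813, 375 to 996 and 703 to 958 FPKM for the fibroblast and muscle list, and 278 to 5090, 1529 to 5378 and 2571 to 7854 FPKM for the blood list. ALI 1 gave the lowest ALI sum of each of these lists except the blood list. The other ALI libraries held 22537 to 26661 FPKM for the epithelial and 557 to 894 FPKM for the monocyte and macrophage list. For the endothelial list they held 457 to 676 FPKM, and for the fibroblast and muscle list 827 to 996 FPKM. Marco, of macrophages, was at 0 in all control libraries and Cldn5, of endothelium, in all 15 libraries. The part of these cells in the chemokine levels was not tested either.

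With all libraries, no call was made for 3 other listed CXC chemokines. Pf4 and Ppbp, the platelet chemokines encoded between Cxcl3 and Cxcl6, and Cxcl17, a mucosal chemokine, gave 0 of 3 calls by limma in ALI and in SJY against control, and 0 by voom. At an unadjusted p under 0.05, 0 were higher and 1 lower in ALI, and 0 differed in SJY. The mean Pf4 level was 35.4 ± 12.8 FPKM in control lung, 41.5 ± 8.47 FPKM in ALI lung and 45.6 ± 8.33 FPKM in SJY lung (SD, n = 5). Cxcl17 differed by -0.32 in ALI (adjusted p = 0.0645), and by -0.40 without ALI 1 (adjusted p = 0.0167).

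Of 13 further listed chemokines, 8 were called higher and 1 lower in ALI, and likewise 8 and 1 in SJY, with median log2 fold changes of 0.96 and 1.31. Over all genes 8.02% were called higher and 9.56% lower in ALI, and 14.6% and 18.1% in SJY, with medians of -0.12 and -0.11. The 1 of 13 called lower is no more than these shares. Cxcl13, the B cell chemokine, rose by 5.63 in ALI (adjusted p = 5.53e-05), from 7.33 ± 3.17 to 568 ± 410 FPKM (SD, n = 5). The monocyte chemokines Ccl7 and Ccl2 rose by 3.32 (adjusted p = 0.000455) and 3.0 (adjusted p = 0.000236), and Cxcl14 fell by 1.06 (adjusted p = 0.014), a call lost under median-of-ratios scaling. In SJY against ALI 0 of 13 were called by limma or voom, while 3 had an unadjusted p under 0.05, 2 of them higher. Without ALI 1 the single call was Ccl4, named here after its value was seen.

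Among the cytokines and receptors that induce these chemokines, 8 of 11 passed the filter and 4 were called higher in ALI and 4 in SJY against control, with median log2 fold changes of 0.40 and 0.53, where 8.02% and 14.6% of all genes were called higher. Il1b (interleukin-1 beta) rose by 2.27 in ALI (adjusted p = 8.54e-06), with control libraries between 12.2 and 27.6 FPKM, ALI libraries between 77.1 and 136 FPKM and SJY libraries between 93.3 and 149 FPKM. Il6 rose by 2.0 (adjusted p = 0.0341), and Tnfrsf1a, the main TNF receptor, by 0.58 (adjusted p = 0.00273). Without ALI 1 the Il6 log2 fold change was 1.27, and its ALI mean went from 8.96 ± 15 FPKM (SD, n = 5) to 2.29 ± 2.09 FPKM (SD, n = 4). The Il6 call was lost without control 5, 6, 7 or 8 or ALI 3, with adjusted p between 0.0583 and 0.0738. Tnf, Il17a and Il17f did not reach the filter. Tnf, the classical early product of LPS-stimulated macrophages, was at most 0.441 FPKM in any library.

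In the path from LPS sensing to transcription, 14 of 15 listed genes were tested, and 6 were called higher and 1 lower in ALI, and 7 higher and 3 lower in SJY, with median log2 fold changes of 0.35 and 0.38. Over all genes 8.02% were called higher and 9.56% lower in ALI, and 14.6% and 18.1% in SJY, so the lower calls are near the share over all genes. Cebpb, which encodes a C/EBP factor, rose by 2.20 in ALI (adjusted p = 0.000483), from 91.4 ± 29.8 to 415 ± 89.5 FPKM (SD, n = 5). The LPS co-receptor Cd14 rose by 1.78 (adjusted p = 3.95e-05), the LPS carrier Lbp by 1.56 (adjusted p = 0.000355), and Jun, an AP-1 subunit, fell by 0.97 (adjusted p = 0.00365). Of 10 listed genes that act on NF-kB or on the life of chemokine mRNA, 4 rose in ALI and 6 in SJY, with medians of 0.43 and 0.61. Not all of the 10 act as limits, and Elavl1, which does not, was among the 6 (0.61, adjusted p = 0.0025). Zc3h12a, an RNase that degrades inflammatory mRNAs, rose by 1.68 (adjusted p = 4.39e-05), Irak3 by 1.58 (adjusted p = 5.53e-05) and Tnip1 by 1.02 (adjusted p = 0.00192).

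In SJY against ALI, limma called 0 of these 14, 0 of the 10 and 0 of the 8 cytokine and receptor genes. At an unadjusted p under 0.05 there was 1 lower gene among the 14, 1 higher among the 10 and 1 higher among the 8, and voom called 0. Without ALI 1 the single call in the 3 lists was Il17ra, higher in SJY and named here after its value was seen.

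Of 9 genes that bind, shed or cut chemokines outside the cell, 2 rose and 2 fell in ALI against control, and 2 rose and 2 fell in SJY. In SJY this is near the shares over all genes, 14.6% higher and 18.1% lower, and in ALI those shares are 8.02% and 9.56%. The neutrophil proteases Mmp8 and Mmp9, which trim these ligands, rose by 4.94 (adjusted p = 2.53e-06) and 3.34 (adjusted p = 3.25e-06) in ALI. Ndst1, which sulphates heparan chains, fell by 1.47 (adjusted p = 0.0225), and Sdc1, a heparan sulphate carrier of epithelium, fell by 0.62 (adjusted p = 0.00746). The Ndst1 call was lost without control 5, 6, 7 or 8 or ALI 3 (adjusted p 0.0509 to 0.0597). Both proteases are also in the neutrophil marker list. In SJY against ALI 0 of 9 were called by limma or voom, while 3 had an unadjusted p under 0.05, 2 of them higher, and without ALI 1 the calls were Mmp8 and Mmp9, both higher.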

How the data were processed

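RNA of 15 whole-lung libraries was measured. The authors deposited FPKM per gene, 22250 Ensembl genes with symbols. The tools used were cutadapt, HISAT2 and StringTie, with the build Rnor_6.0 and no versions, per the submitters' processing notes, and libraries were made from total RNA with a NEBNext Ultra kit, per the labels' protocols. Read assignment between similar genes and strands is not given in the sources used here, so reads shared by Cxcl1, Cxcl2 and Cxcl3 could have been divided between them.

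From the deposited FPKM, whole fragments were recovered exactly for 17460 of 17460 genes above 0 in at least 3 libraries (100%, largest departure from a whole number for the members 3.6e-05), summing to 99.9964% to 99.9994% of each FPKM denominator, so the values are relative to fragments counted in genes.

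Tests used limma 3.58.1 (R 4.3.3) on log2(deposited FPKM + 1) with trend and robust settings, all 3 groups in one fit, a filter of 1 FPKM in at least 5 libraries, two-sided p-values with Benjamini-Hochberg adjustment and a threshold of 0.05. Exact permutation tests over 252 regroupings served single genes. The code was tested on simulated data. Alternatives were median-of-ratios scaling, a smaller pseudocount (0.1), tests of all genes above 0, tests of genes with a mean of at least 5 FPKM, no trend or robust setting, fits of 2 groups, array weights, a replicate block, each library left out, and, chosen after seeing the data, voom on the recovered fragments. The median log2 fold change of all genes in ALI against control was -0.12, and 0.0014 after median-of-ratios scaling.

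The members and gene lists were chosen with earlier results of these data known. Genes named from a list are the called ones with the largest changes in ALI against control, at most 3 in each direction, the most abundant where none was called, and every receptor. Of the listed symbols Cxcl5, Ackr1, Ly96, Ccr2, Foxj1, Pecam1, Col1a2 and Hba1 were not analysed here. For each chemokine the 3 tested genes of highest Spearman rho were also named, except 1 for Cxcl1 that is not reported here. Promoter sequences are from RefSeq, build GRCr8.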

Additional observations from a re-analysis of the deposited data

Results flagged for a closer look

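Among 27 groups of 5 values tested (the FPKM of the 4 chemokines, their shares in the summed FPKM and that sum, in the 3 groups), 2 single libraries lay far from the rest of their group by Dixon's criterion (gap over range above 0.71), which chance alone exceeds in about 1 in 20 groups, so 2 of 27 is near that rate. Control 4 had 42.5 FPKM of Cxcl1, while the other controls had 11.5 to 17.1 FPKM (gap over range 0.819). ALI 1 had 95.7 FPKM of Cxcl2, while the other ALI libraries had 10.1 to 28.9 FPKM (gap over range 0.78). ALI 1 is also the library with 37.7% of its FPKM from mitochondrial genes.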

How the results depend on the processing

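Of 372 values of the members' fold changes and the counts of called genes under an alternative, 327 were classed as unchanged. For a fold change this meant the same direction and side of the threshold. For a count it meant a limited change from the main count. A count of 1594 (ALI against control without control 8) was classed as unchanged from 2366, and 1545 (without control 5) was not. In ALI against control the count of 2366 called genes ranged from 1538 (without control 7; 1545 without control 5) to 2890 when 1 library was left out, and was 1332 with only the 2 groups and 3959 with array weights. In SJY against ALI the count of 1 ranged from 0 to 181 (without ALI 1) when 1 library was left out, was 0 with median-of-ratios scaling, a pseudocount of 0.1, no filter, no trend or robust setting and only the 2 groups, and was 478 with array weights. In SJY against control the count of 4390 became 7654 with array weights, and 3329 to 5953 with 1 library left out. With 1 library left out, Cxcl3 in ALI against control ranged from 0.46 to 0.69 (adjusted p 0.0101 to 0.0877), and with only the 2 groups it was 0.56 (adjusted p = 0.0746). In SJY against ALI, Cxcl1 was 0.22 with array weights, and Cxcl2 was 0.39 without ALI 1, 0.28 without SJY 1 (range -0.40 to 0.39 over left-out libraries) and 0.68 with array weights, none of them called. The exact permutation p-values there were 0.0397 for Cxcl3 (-0.31) and 0.0317 for Cxcl6 (-2.36), not adjusted. Cxcl6 in SJY against control passed with a pseudocount of 0.1 (2.44), with only the 2 groups (1.19), with array weights (1.19) and by the exact permutation test (1.19), and with ALI 1 left out it had an adjusted p of 0.0504. The cause of these shifts was not tested.

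The labels do not say whether the replicate numbers pair libraries across groups. Libraries with the same number in different groups had correlations of deviations from -0.389 to 0.302. Those with different numbers had -0.333 to 0.446, so these correlations do not settle whether the numbers carry a pairing. With the number as a replicate block, 313 genes were called in ALI against control and 1142 in SJY against control. Under the replicate block Cxcl1 (2.84), Cxcl2 (1.77) and Cxcl6 (3.62) in ALI against control and Cxcl2 (1.77) in SJY against control were not called, and Cxcl3 in SJY against control was (0.63). For the named pathway and marker genes 1844 of 1938 values were on the same side, and the reversed ones were Pf4 under the replicate block (-0.19) and Ackr2 with array weights (0.01), both in ALI against control and neither called. Depth limits Cxcl6 in control lung, which rests on 1 to 8 fragments a library.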
